A study of Mus musculus with 18 samples.

Results

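The mouse bitter taste receptor family Tas2r was examined in RNA sequencing libraries of cells sorted from the trachea. Its members are the 35 symbols of the deposited count table that consist of Tas2r and a number, of 26327 symbols in all, whatever their counts. Brush cells, the chemosensory cells of the airway lining also called tuft cells, gave 7 libraries and were sorted as CD45-, EpCAM+ and eGFP+ cells. The remaining groups were CD45- EpCAM+ epithelial cells (7 libraries, called EpCAM here) and CD45+ hematopoietic cells (4 libraries). Every group came from naïve mice on a B6 background that carry the bacterial artificial chromosome transgene Tg(RP23-268L19-EGFP)2Mik, which drives eGFP from the Chat locus, so the control groups carry it too. No label says that eGFP+ cells were gated out of the EpCAM group. Brush cells were defined by Chat-driven fluorescence, so brush cells without that signal are not in the brush group. Nothing in the labels gives the age of the mice or whether the libraries of 1 group are from different animals, so p-values measure the spread between these libraries, which may be technical in part.

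Tas2r genes encode G-protein-coupled receptors for bitter compounds. In taste cells a bound receptor acts through the G protein gustducin (alpha subunit Gnat3) and phospholipase C beta (Plcb2) to release calcium through the IP3 receptor Itpr3, which opens the cation channel Trpm5. Airway brush cells share much of this machinery and are known as sentinels for irritants and bacterial products. All 35 members have 1 annotated exon in GENCODE vM21 (GRCm38, the assembly that mm10 names), and none overlaps another annotated gene.

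Library totals were 838328 to 6031711 counts in brush, 2442601 to 6087184 in EpCAM and 371652 to 7438791 in CD45 libraries. All 10 brush cell markers checked, among them Pou2f3, Dclk1 and Avil, were higher in brush than in EpCAM and in CD45 libraries. Of all genes tested 18.3% were called higher than in EpCAM and 23.4% higher than in CD45 libraries. Chat and Epcam are among the 10 and belong to the gate, so their calls follow from the sort. Il25 had 0 counts in both other groups and was tested through its brush counts alone. The summed level of 10 leukocyte markers was 44.7 to 88.6 CPM (counts per 1000000 at the TMM-scaled library size) in brush libraries against 9790 to 22570 CPM in CD45 libraries. All 9 leukocyte markers tested were lower in brush than in CD45 libraries, where 17.8% of all genes were called lower in a fit with no filter. Ptprc, the gene of CD45, is among them and belongs to the gate. Against EpCAM libraries 4 of the 9 were higher in brush (Ptprc by 8.38 ± 0.55 on the log2 scale, Tyrobp by 4.83 ± 1.07, Laptm5 by 3.74 ± 0.58 and Csf1r by 1.84 ± 0.65, SE) and 2 were lower (Lyz2 and Cd79a, the latter with 0 brush counts), and their part in the results was not tested. In brush replicate 4 the ribosomal RNA genes Rn18s and Rn45s took 60.9% of the counts and the total was the lowest of the brush libraries, and in replicate 7 they took 22.65% and the total was the highest. Brush replicate 4, EpCAM replicate 5 and CD45 replicate 1 stood apart: their median Spearman correlations with their own group, across genes, were 0.849, 0.81 and 0.759, and those of the other libraries lay at 0.895 to 0.951. Brush replicate 7 had the highest number of receptors detected. The members called by edgeR with no filter are counted with and without these libraries, and the values of Tas2r108 are given both ways.

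Tas2r transcripts were abundant in brush libraries and near 0 in both other populations. The 35 members together had 4111, 2850, 3135, 125, 770, 2939 and 6724 counts in brush replicates 1 to 7. At the TMM-scaled library size the family reached 745.2, 577.6, 849.3, 235.7, 419.1, 626.9 and 800.1, a mean of 607.7 ± 219.7 CPM (SD, n = 7). Brush replicates 4 and 5 were lowest, and without replicate 4 the mean was 669.7 CPM. The 7 EpCAM libraries held 1 to 5 family counts each, 0.697 ± 0.619 CPM (SD, n = 7), and the 4 CD45 libraries 0 to 15 counts, 1.69 ± 1.59 CPM (SD, n = 4). Every brush library thus lay above every library of the other groups. In sorted bulk samples a lower level per cell and fewer cells that express a gene cannot be told apart.

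**Figure D1:**
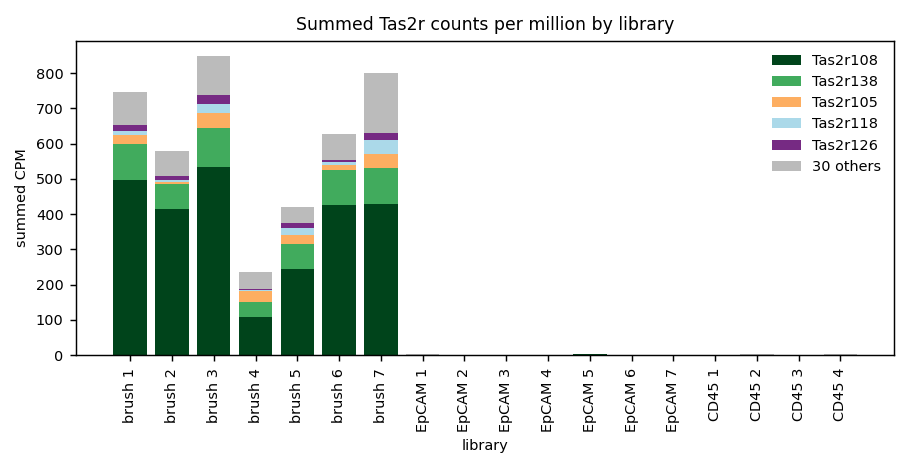
Summed Tas2r CPM (vertical axis, linear) in each of the 18 libraries, with the 5 members of highest mean TPM and the 30 others as stacked colours. The brush libraries run from 235.7 CPM in replicate 4 to 849.3 CPM in replicate 3 and Tas2r108 fills the largest part of each, while EpCAM and CD45 bars are too low to see.

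Tas2r108, a receptor known to respond to denatonium, carried most of the family signal. The gene lies at chr6:40493529-40494541 on the plus strand. Its level was 496.3, 413.4, 533.1, 109.3, 242.8, 424.5 and 429.8 CPM in brush replicates 1 to 7, a mean of 378.5 ± 149.8 CPM (SD, n = 7). It ranked 142 among all symbols by mean brush CPM. It held between 46.4% (Wilson 95% interval 37.9 to 55.1%, replicate 4) and 71.6% (69.9 to 73.2%, replicate 2) of the family counts of a brush library. EpCAM libraries had 5 Tas2r108 counts, all in replicate 5, and CD45 libraries had 1. The log2 fold change was 10.87 ± 0.73 (SE) against EpCAM (edgeR quasi-likelihood test, adjusted p = 8.8e-11), higher in 7 of 7 brush libraries than in any EpCAM library. Without EpCAM replicate 5 no EpCAM count is left and the fitted value was 13.69 ± 0.68, and without all 3 libraries that stood apart it was 14.03 ± 0.48; both depend on the prior count that edgeR adds. Against CD45 libraries the log2 fold change was 12.14 ± 1.07, and 13.57 without replicate 3, which held the count.

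Tas2r138, the mouse counterpart of the human receptor for phenylthiocarbamide, was the next most abundant member. It lies at chr6:40612315-40613310 on the minus strand. Its brush levels were 102.1, 71.74, 109.7, 41.48, 71.85, 100.3 and 100.9 CPM, a mean of 85.4 ± 24.6 CPM (SD, n = 7), or 12.4 to 17.6% of the family counts. No count fell on Tas2r138 in any EpCAM or CD45 library. Against a floor of 3 counts over the whole group, 0.0986 CPM in EpCAM and 0.172 CPM in CD45 libraries, its mean brush level exceeded the EpCAM level at least 866-fold and the CD45 level at least 496-fold.

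6 other members averaged at least 10 CPM in brush libraries, and their levels varied more between libraries. Tas2r105, a cycloheximide receptor (chr6:131686532-131687495, minus strand), had 26.1, 6.89, 43.9, 30.16, 24.5, 13.0 and 39.7 CPM in replicates 1 to 7. Tas2r118, whose human counterpart responds to salicin (chr6:23969161-23970060, minus strand), had 12.15, 4.66, 26.55, 3.77, 22.3, 9.39 and 40.8 CPM. Both were highest in replicate 3 or 7 and had 0 counts in EpCAM and CD45 libraries, so that brush levels were at least 267-fold and at least 173-fold higher than EpCAM levels. Tas2r126 (chr6:42434535-42435464, plus strand) had 15.8, 11.55, 23.8, 1.89, 13.06, 6.61 and 17.6 CPM. Tas2r102 (chr6:132762131-132763174, plus strand) had 11.4, 5.88, 23.6, 3.77, 9.80, 11.3 and 17.1 CPM. Both were highest in replicate 3 and lowest in replicate 4. Tas2r135 (chr6:42405434-42406526, plus strand) had 19.6, 7.30, 14.6, 13.2, 4.90, 3.41 and 14.6 CPM, lowest in replicate 6. Tas2r136 (chr6:132777179-132778162, minus strand) had 30.8, 24.1, 22.8, 20.7, 10.3, 8.96 and 12.02 CPM, but its counts were not borne out by the other deposited table, as described below.

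**Figure D2:**
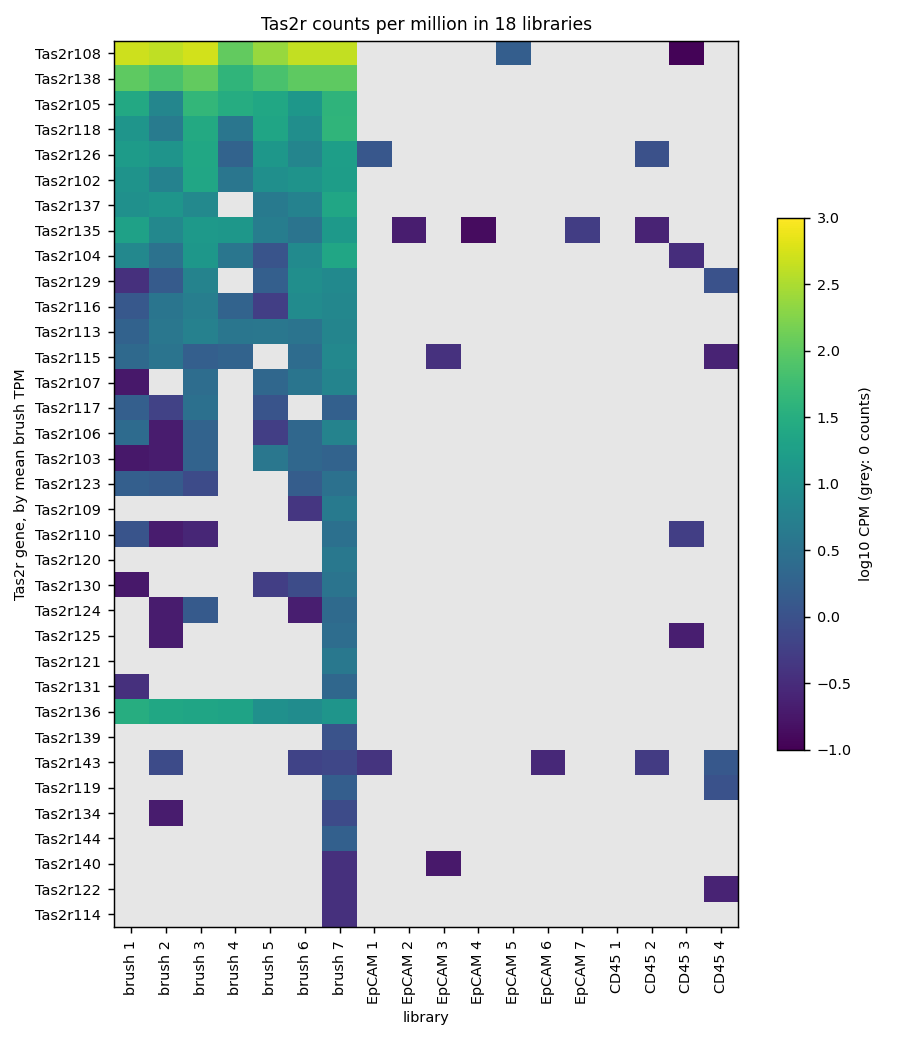
Level of each of the 35 Tas2r genes (rows, ordered by mean brush TPM) in each of the 18 libraries (columns), as the base 10 logarithm of CPM, with 0 counts in grey. The upper rows are filled across the 7 brush columns, the lower rows are filled in brush replicate 7 and grey in most other brush libraries, and the EpCAM and CD45 columns are almost all grey.

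Levels of different genes were compared per length, in TPM, a length-scaled unit, from the deposited RSEM tables. Tas2r108 averaged 471.1 ± 238.2 TPM, Tas2r138 97.0 ± 46.2, Tas2r105 36.2 ± 24.1, Tas2r118 22.1 ± 21.9 and Tas2r126 15.7 ± 10.1 TPM (SD, n = 7 each). The order of the first members was the same in nearly every brush library. Tas2r108 came first and Tas2r138 second in 7 of 7 libraries, and within a library the first exceeded the second 3.07 to 6.65 times. Tas2r105 exceeded Tas2r118 in 7 of 7 libraries as well and stood at its place in 6 of 7. From Tas2r118 on the order was not stable: Tas2r118 exceeded Tas2r126 in 5 of 7 libraries, and Tas2r126 exceeded Tas2r102 in 3 of 7. Tas2r102 (14.3 ± 9.66 TPM), Tas2r137 (10.3 ± 11.7), Tas2r135 (10.1 ± 7.18) and Tas2r104 (9.60 ± 12.5) followed, and each differed from the next by less than its spread.

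**Figure D3:**
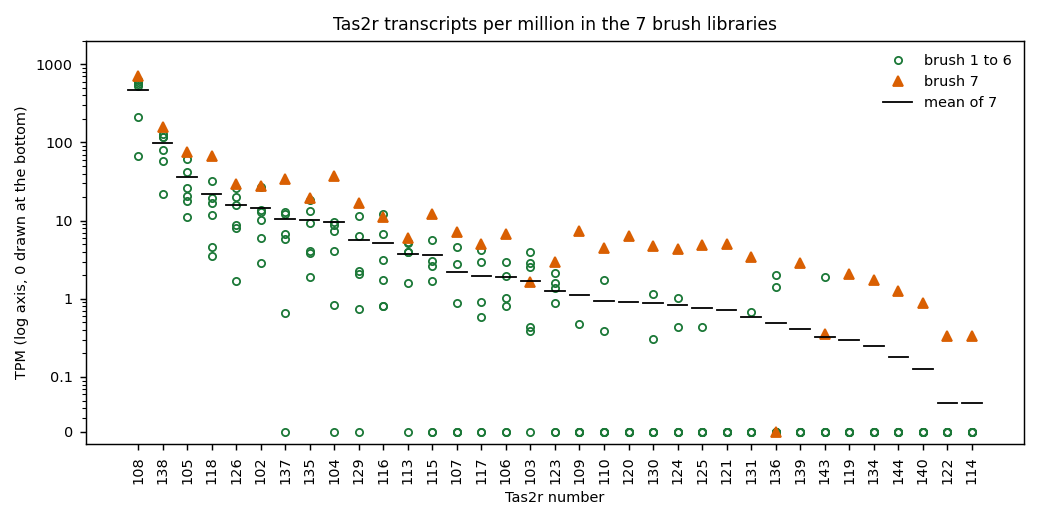
TPM of each Tas2r gene (logarithmic vertical axis, with 0 drawn at the bottom) in the brush libraries, ordered by the mean of the 7. Open circles are replicates 1 to 6, triangles replicate 7 and bars the mean; Tas2r108 lies above Tas2r138 in every library, and towards the right most circles are at 0 while the triangles are not.

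The promoter windows of the 5 members with the highest mean TPM are shown because these members were all higher in brush libraries, which also hold transcripts of Pou2f3, a POU factor that binds octamer motifs (193 ± 37.1 CPM in brush against 1.92 ± 1.47 CPM in EpCAM libraries). Each window is RefSeq sequence of GRCm38.p6, 5′ to 3′ on the gene's strand. It has 250 bases before and 50 after the gene start that RefSeq annotates. For Tas2r108 and Tas2r105 that start lies inside the GENCODE gene given above. Capitals mark the octamer ATTTGCAT (reverse complement ATGCAAAT) or its 7-base core TTTGCAT (reverse complement ATGCAAA), which lies inside the octamer. Both strands were searched. The windows lie at chr6:40493342-40493641 (plus strand, Tas2r108), chr6:40613261-40613560 (minus, Tas2r138), chr6:131687414-131687713 (minus, Tas2r105), chr6:23970011-23970310 (minus, Tas2r118) and chr6:42434285-42434584 (plus, Tas2r126).
Tas2r108: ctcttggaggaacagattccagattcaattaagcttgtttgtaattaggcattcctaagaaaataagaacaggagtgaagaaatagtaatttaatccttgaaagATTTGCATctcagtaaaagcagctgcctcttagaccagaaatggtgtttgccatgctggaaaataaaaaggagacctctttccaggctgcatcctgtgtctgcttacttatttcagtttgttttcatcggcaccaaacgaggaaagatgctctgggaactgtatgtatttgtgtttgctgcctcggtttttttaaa
Tas2r138: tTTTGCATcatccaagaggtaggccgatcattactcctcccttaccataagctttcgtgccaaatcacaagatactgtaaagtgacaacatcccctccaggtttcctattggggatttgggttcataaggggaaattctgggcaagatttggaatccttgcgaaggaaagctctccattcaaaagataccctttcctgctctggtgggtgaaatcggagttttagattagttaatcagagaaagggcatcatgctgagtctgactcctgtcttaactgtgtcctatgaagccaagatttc
Tas2r105: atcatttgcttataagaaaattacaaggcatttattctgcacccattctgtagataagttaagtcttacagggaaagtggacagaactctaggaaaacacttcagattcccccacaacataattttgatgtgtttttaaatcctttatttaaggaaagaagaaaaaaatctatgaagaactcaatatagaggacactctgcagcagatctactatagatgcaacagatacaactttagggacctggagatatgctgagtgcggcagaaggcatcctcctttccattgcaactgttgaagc
Tas2r118: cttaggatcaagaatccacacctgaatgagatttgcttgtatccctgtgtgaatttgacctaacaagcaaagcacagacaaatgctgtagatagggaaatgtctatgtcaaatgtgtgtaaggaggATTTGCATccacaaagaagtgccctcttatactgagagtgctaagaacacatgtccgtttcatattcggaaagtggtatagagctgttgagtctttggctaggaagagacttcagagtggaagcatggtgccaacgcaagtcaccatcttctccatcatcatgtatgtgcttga
Tas2r126: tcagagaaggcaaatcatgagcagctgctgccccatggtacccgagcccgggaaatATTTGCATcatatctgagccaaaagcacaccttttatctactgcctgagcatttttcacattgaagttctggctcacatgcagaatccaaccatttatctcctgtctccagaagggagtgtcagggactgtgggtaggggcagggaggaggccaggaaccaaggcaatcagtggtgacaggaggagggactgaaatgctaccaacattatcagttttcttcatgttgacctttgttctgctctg

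In these windows Tas2r108, Tas2r118 and Tas2r126 held the octamer, ending 138, 116 and 186 bases before the RefSeq start. Tas2r138 held the core only, 242 bases before, and Tas2r105 held neither. A window was in the RefSeq table for 31 of the 35 members (not for Tas2r116, Tas2r117, Tas2r121 and Tas2r136), and in 29 of them the annotated start is the letters ATG, so the window is placed on the start codon and not on a measured transcription start. The octamer occurred in 7 of the 31 windows (22.6%), those of Tas2r107, Tas2r108, Tas2r118, Tas2r126, Tas2r135, Tas2r137 and Tas2r144. Over all 32851 windows of the table it occurred in 1.74%, and in 2.65% of 944 olfactory receptor windows, another family of receptors. The core occurred in 12 member windows (38.7%) against 4.63% of all windows and 7.31% of olfactory receptor windows. Of the 10 members with the highest mean TPM, 5 held the octamer, and of the other 21 with a window 2 did. These matches describe letters in a window and show no binding.

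The genes fall into 7 places in the genome when members under 500000 bases apart are joined, and 1 of these held most of the signal. The trio Tas2r137, Tas2r108 and Tas2r138 at chr6:40491233-40613310 made up 77.8% of the family's summed mean CPM and 80.1% of its TPM. Tas2r137 and Tas2r108 lie 1223 bases apart on the same strand, yet averaged 9.14 ± 7.51 and 378.5 ± 149.8 CPM. The largest cluster, 18 members at chr6:132656953-133055816, made up 8.69% of the CPM and 6.09% of the TPM, and the 6 members at chr6:131629823-131690063, with Tas2r105 and Tas2r104, made up 6.53% and 7.04%. The order of these clusters thus turned with the unit, and the CPM of the larger one includes 18.54 CPM of Tas2r136, a level that is uncertain. In the cluster of 6 the neighbours Tas2r105 and Tas2r114, 1638 bases apart, had 796 and 3 brush counts. The 5 members at chr6:42140936-42435464, among them Tas2r126 and Tas2r135, made up 4.06% of the CPM, and Tas2r118, alone on its stretch, 2.81%. Tas2r119 on chromosome 15 and Tas2r134 on chromosome 2 had 13 and 8 brush counts.

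The comparison with EpCAM cells asked which receptors are raised in brush cells relative to the tracheal epithelium. With a filter on low counts 13 members were tested, and 13 of 13 were higher in brush, against 18.3% of all 13418 genes tested; these members passed the filter through their brush counts alone, so this count supports nothing. With no filter, 28 of the 35 members were called higher and 0 lower, where 12.1% of 22229 genes were called higher and 15.6% lower. The median log2 fold change of the 35 members was 5.43 and that of all genes -0.02. Without brush replicate 7, 30 members had a count in the remaining libraries and 22 were called higher, against 10.8% of genes, and these 22 were all among the 28. The 6 that were lost without it were Tas2r109, Tas2r120, Tas2r121, Tas2r125, Tas2r131 and Tas2r144. Without brush replicate 4, EpCAM replicate 5 and CD45 replicate 1, 27 of 35 were called higher, against 13.8% of genes. In 11 members every brush library lay above every EpCAM library, against 5.87% of genes with a count.

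The 7 members not called against EpCAM were Tas2r114, Tas2r119, Tas2r122, Tas2r134, Tas2r139, Tas2r140 and Tas2r143. Tas2r114, Tas2r122 and Tas2r140 had 3 brush counts each, Tas2r134 had 8, Tas2r139 had 9, and Tas2r119 and Tas2r143 had 13 each. Their edgeR adjusted p in the fit without a filter ran from 0.0505 (Tas2r119) to 0.569 (Tas2r140), and Tas2r140 and Tas2r143 also had EpCAM counts. Tas2r144, with 14 brush counts, all in replicate 7, and 0 in EpCAM libraries, was called (edgeR adjusted p = 0.0427). It was not called with a filter blind to the groups (edgeR adjusted p = 0.0537). Nor was it called with no filter and without the 3 libraries that stood apart (edgeR adjusted p = 0.068). DESeq2 gave an adjusted p for 19 members and called 19 higher, against 16.5% of genes; its own filter on mean counts kept these members, whose counts are nearly all from brush libraries, so this count supports nothing either.

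Most members of intermediate level stood at 0 counts in EpCAM libraries, so their folds are lower bounds that scale with the brush level. Tas2r137 and Tas2r104 exceeded EpCAM by at least 92.7-fold and 86.3-fold. For Tas2r113, Tas2r116 and Tas2r129 the brush level was higher by at least 42.0-fold, 40.6-fold and 38.9-fold, with mean brush levels of 4.14 ± 1.58, 4.01 ± 3.03 and 3.84 ± 3.88 CPM (SD, n = 7). Tas2r107 (2.14 ± 2.34 CPM), Tas2r106 (1.93 ± 2.13), Tas2r103 (1.45 ± 1.40), Tas2r123 (1.21 ± 1.07) and Tas2r117 (1.14 ± 1.06) exceeded EpCAM by at least 21.7-fold, 19.6-fold, 14.7-fold, 12.2-fold and 11.6-fold, with edgeR adjusted p from 0.000316 to 0.00151. Tas2r130, Tas2r110 and Tas2r124 averaged under 1 CPM and exceeded EpCAM by at least 7.29-fold, 6.57-fold and 6.01-fold, with adjusted p of 0.00747, 0.00635 and 0.00915. All of these kept their call against EpCAM without brush replicate 7, though the bounds include it. Without it Tas2r130, Tas2r110 and Tas2r124 had 6, 8 and 7 brush counts, with edgeR adjusted p of 0.0367, 0.0295 and 0.0298. Against CD45, Tas2r130 and Tas2r124 were not called without it (edgeR adjusted p = 0.0978 and 0.0862). The 6 members whose call against EpCAM was lost without replicate 7 averaged 0.238 to 0.673 CPM. They were at least 2.41-fold (Tas2r144) to 6.82-fold (Tas2r109) higher, with edgeR adjusted p from 0.0142 to 0.0427. Higher up, Tas2r136 and Tas2r102 were at least 188-fold and 120-fold higher.

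Members with reads in EpCAM libraries were few. Tas2r135 had 4 EpCAM counts in 3 libraries, and its log2 fold change was 6.11 ± 0.69 (SE, edgeR adjusted p = 1.68e-07), and 6.78 without EpCAM replicate 7. Tas2r126 had 3, all in replicate 1, a log2 fold change of 6.61 ± 0.87 (SE, edgeR adjusted p = 1.58e-06) and a ratio of 149 (exact 95% counting interval 50.8 to 727). Tas2r115 had 2 in replicate 3, a log2 fold change of 4.98 ± 0.88 and a ratio of 56.5 (15.3 to 473). The values of Tas2r126 and Tas2r115 each rest on 1 EpCAM library. Without it the fitted log2 fold change was 8.88 for Tas2r126 and 6.64 for Tas2r115, with no EpCAM count left. Tas2r143 had 2 EpCAM counts and Tas2r140 had 1. In all, 29 of 35 members had 0 counts in the EpCAM libraries, 24 had 0 in the CD45 libraries and 23 had 0 in both. Trpm5, which marks brush cells, averaged 1.04 ± 1.10 CPM in the same EpCAM libraries, and its part in these counts was not tested.

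The comparison with the 4 CD45 libraries gave fewer calls. With the filter, 13 of 13 members were higher in brush than in CD45 libraries (23.4% of genes; the same limit applies). With no filter 21 of 35 were called higher and 0 lower, against 15.0% and 17.8% of genes, and 19 of 30 without brush replicate 7, against 14.3%. Without brush replicate 4, EpCAM replicate 5 and CD45 replicate 1 it was 20 of 35, against 16.3%. The median log2 fold change was 4.97 and that of all genes 0.00. DESeq2 called 17 of 19 higher, against 22.9% of genes, with the limit named for EpCAM. Every brush library lay above every CD45 library in 11 members, against 10.4% of genes. Tas2r143 had 7 counts in CD45 libraries (5 of them in replicate 4) and 13 in brush libraries, a ratio of 1.09 (exact 95% counting interval 0.405 to 3.24) and no call (log2 fold change -0.41 ± 1.26, edgeR adjusted p = 0.856).

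The other members with at least 3 CD45 counts each had them in 1 library. They were Tas2r110 (5, replicate 3), Tas2r126 (4, replicate 2), Tas2r119 and Tas2r129 (4 each, replicate 4) and Tas2r104 (3, replicate 3). Tas2r126 and Tas2r104 were still higher in brush, with log2 fold changes of 5.53 ± 1.03 and 5.65 ± 1.09 in the fit without a filter (SE, edgeR adjusted p = 5.89e-05 and 0.000152). In the filtered fit without the library that held their CD45 counts the values were 8.85 and 8.16, and without CD45 replicate 3 that of Tas2r126 was 4.78. Tas2r129 was called at 3.76 ± 1.26 (adjusted p = 0.0223), and it was not called in the filtered fit without CD45 replicate 2 or 3 (adjusted p = 0.075 and 0.0802); without replicate 4, which held its counts, the value was 7.17. Tas2r110 had a log2 fold change of 1.77 ± 1.37 (adjusted p = 0.33) and Tas2r119 of 0.03 ± 0.97 (adjusted p = 1), neither called. Between EpCAM and CD45 libraries 0 members were called by edgeR or by DESeq2. In either direction edgeR with no filter called 29.5% and DESeq2 26.6% of genes. In the edgeR fit 3 members had an unadjusted p under 0.05. But 0 members had at least 10 counts in either group, and 23 had 0 in both. A call was thus hardly possible, and its absence does not show that the 2 groups are alike.

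Brush replicate 7 differed from the other brush libraries in how many receptors it showed. The number of members with at least 1 count was 22, 23, 21, 12, 18, 22 and 35 in replicates 1 to 7. All 35 members were seen in at least 1 brush library and 30 had at least 10 counts over the 7, but without replicate 7 the numbers were 27 and 19. 11 members had counts in all 7 brush libraries, and 8 had counts in replicate 7 alone (Tas2r114, Tas2r119, Tas2r120, Tas2r121, Tas2r122, Tas2r139, Tas2r140 and Tas2r144). Tas2r120, for example, had 34 counts in replicate 7 and 0 in the other brush libraries, where the rate of replicate 7 would give 85.8. Tas2r121 had 33 against 0, where that rate would give 83.2. By CPM, 23 of 35 members were highest in replicate 7.

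Depth also differed between these libraries. Thinned to the scaled depth of replicates 1 to 6, with counts taken as independent draws so that the figure covers counting error only, replicate 7 would be expected to show 34.9, 34.8, 34.4, 27.3, 32.9 and 34.7 members, against 22, 23, 21, 12, 18 and 22 observed. Replicate 7 was picked because it showed the most members, and its own counts set these figures. What set replicate 7 apart, depth included, was not tested. The RSEM tables gave reads to 34 members in replicate 7 and to 8 to 21 in the other brush libraries. Olfactory receptor genes, 1100 symbols in the table, gave a smaller difference: 63 had a count in replicate 7 and 21 to 55 in the other brush libraries, and up to 127 in a CD45 library. The amino acid taste receptor Tas1r1 had 71 counts in replicate 7 and 0 to 6 in the other brush libraries. Marker sums of other cell types in replicate 7 lay within the range of the other brush libraries: 2216 CPM for club cell markers (374.2 to 3319), 43.8 CPM for neuroendocrine markers (29.4 to 361.4) and 62.6 CPM for leukocyte markers (44.7 to 88.6). The 8 members seen in replicate 7 alone among brush libraries are thus each a result of 1 library.

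**Figure D4:**
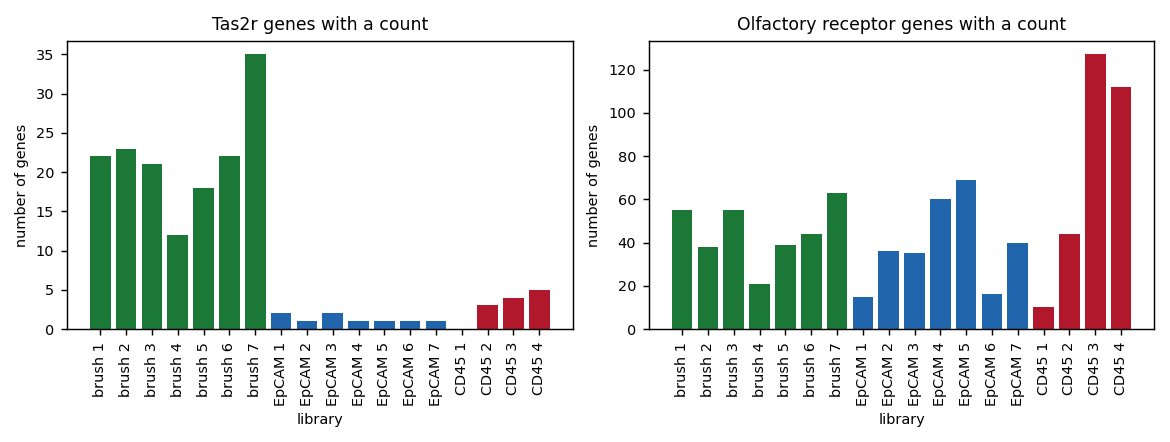
Number of Tas2r genes (left, of 35) and of olfactory receptor genes (right) with at least 1 count in each library, coloured green for brush, blue for EpCAM and red for CD45. Brush replicate 7 reaches 35 Tas2r genes against 12 to 23 in the other brush libraries, while its 63 olfactory receptor genes lie near the 55 of replicates 1 and 3.

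The signal components downstream of the receptors were raised in brush cells with them. Of the 10 listed genes of the taste cascade 9 were tested, and 8 were higher in brush than in EpCAM libraries (18.3% of genes) and 9 higher than in CD45 libraries (23.4%). Calhm1 and Rgs21, at 0 counts in both other groups, passed the filter through brush libraries alone. Gnb3, Trpm5 and Gnat3 averaged 0.451, 1.04 and 1.59 CPM in EpCAM and 0.824, 0.651 and 0.633 CPM in CD45 libraries. Their place among the tested genes thus also rests mainly on brush libraries, and the filtered counts carry little weight. With no filter 8 of 9 were called higher than in EpCAM libraries, against 12.1% of all genes. The 3 largest log2 fold changes over EpCAM were those of Gnb3, a G protein beta subunit (12.57 ± 0.88), Trpm5 (11.09 ± 0.68) and Gnat3 (11.04 ± 0.90). The smallest among the 8 called genes were those of Itpr3 (1.80 ± 0.33), Gng13, the gustducin gamma subunit (7.57 ± 0.87), and Plcb2 (9.32 ± 0.60; SE, edgeR adjusted p from 1.52e-10 to 0.00011 over these 6). Single libraries moved 2 of these: Gnb3 was at 14.02 without EpCAM replicate 4, and Gng13 at 8.89 without EpCAM replicate 2 and 6.93 without brush replicate 4. Trpm4, a calcium-activated channel related to Trpm5, averaged 17.5 ± 6.46 CPM in brush and 22.7 ± 11.5 CPM in EpCAM libraries (log2 fold change -0.38 ± 0.37, adjusted p = 0.444). Calhm3, a subunit of the ATP release channel of taste cells, is not in the count table and averaged 10.6 ± 8.59 TPM in brush libraries.

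The ratio of receptor counts to cascade counts varied between brush libraries. The family had 16.2 to 35.1 counts per 100 Trpm5 counts in brush libraries, lowest in replicate 4 and highest in replicate 3. Per 100 Gnat3 counts it had 25.2, 23.2, 25.3, 3.95, 11.0, 24.7 and 35.0 in replicates 1 to 7. Replicates 4 and 5, with the lowest ratios to Gnat3, also had the lowest totals of the brush libraries (838328 and 2136937 counts). They had the highest ribosomal RNA shares as well (60.9% and 50.25%), and the part of depth and ribosomal RNA was not tested. Gnat3 was highest (5965 CPM) in replicate 4, where the family was lowest. Of the sweet and umami receptors, Tas1r3, the shared subunit, was higher in brush (122 ± 47.3 against 0.72 ± 0.64 CPM, log2 fold change 7.20 ± 0.45), while Tas1r1 and Tas1r2 were too low to be tested, with 85 and 4 brush counts.

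The Rtp and Reep families include genes that help taste and olfactory receptors reach the membrane, a role not known for every member. The listed genes showed no common direction. Of the 10 listed Rtp and Reep genes 5 were tested against EpCAM, with 1 called higher and 2 lower. Of all genes tested 18.3% were called higher, and with no filter 15.6% were called lower. With so few genes these counts are no result about the families. Reep5 was higher in brush (log2 fold change 2.72 ± 0.29), Reep4 (-2.54 ± 0.29) and Reep6 (-2.74 ± 0.39) were lower (edgeR adjusted p from 6.25e-08 to 4.08e-06), and Rtp4 (0.45 ± 0.33, adjusted p = 0.293) and Reep3 (-0.20 ± 0.23, adjusted p = 0.53) were not called. Rtp1, Rtp2, Reep1 and Reep2 had 9, 4, 9 and 8 brush counts against 83, 47, 50 and 21 EpCAM counts and were not tested, and Rtp3 had 0 counts in all libraries.

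The 2 deposited tables disagreed on Tas2r136. The count table gave it 170, 119, 84, 11, 19, 42 and 101 counts in brush replicates 1 to 7, and 0 in EpCAM and CD45 libraries. RSEM gave it 8.01 expected counts over the 7, a ratio of 0.0147 to the 546 counts of the table. The other 13 members with at least 100 brush counts had ratios of 0.435 to 0.747, and the median over 10121 genes of that depth was 0.936. Tas2r136 shares no stretch of 50 bases with another GENCODE transcript. The pseudogene Tas2r145-ps3 lies 8573 bases beyond it, at chr6:132786736-132787727 on the plus strand, and has no row in the count table. RSEM gave that pseudogene 76, 76, 31, 2, 3, 50 and 74 expected counts in brush replicates 1 to 7 and 0 in EpCAM and CD45 libraries, 17.4 ± 11.2 TPM in brush. The level of Tas2r136 is therefore uncertain, and what the table counted under its name was not tested.

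**Figure D5:**
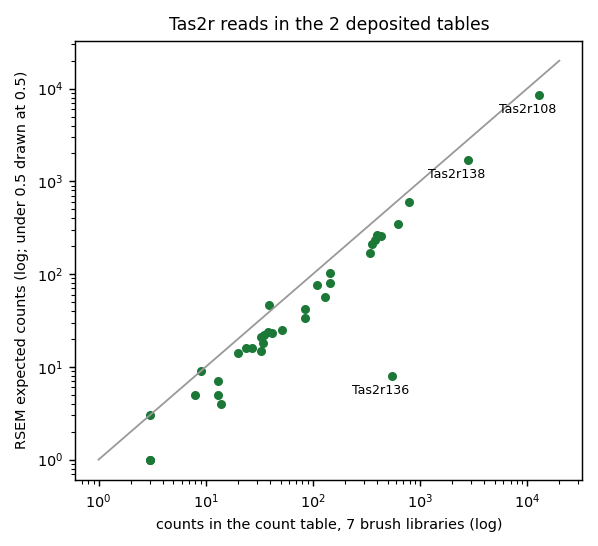
Reads summed over the 7 brush libraries for each Tas2r gene in the count table (horizontal, logarithmic) and as RSEM expected counts (vertical, logarithmic), with the grey line marking equal values. Most members lie just under the line, and Tas2r136 lies far below it, at 546 counts and 8.01 expected counts.

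Reads of close copies could be split between members. Of the 35 transcripts 31 shared no stretch of 50 bases with any other GENCODE transcript. Tas2r117 shared 38.6% of its stretches, with Tas2r109, Tas2r123 and pseudogenes, and Tas2r109, Tas2r110 and Tas2r123 shared 5.99, 7.45 and 7.66%. The levels of these 4, which had 33 to 52 brush counts, are uncertain. Strand was not given in the sources used here, but no member overlaps another annotated gene.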

How the data were processed

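The authors deposited a table of read counts per gene symbol for all 18 libraries, unnormalized, and for each library an RSEM table with expected counts and TPM, per the file headers. The build is mm10 per the submitters' processing notes, which also name RSEM 1.2.21, STAR 2.4.2a, featureCounts, Picard and DESeq2 in no stated role. For the annotation, the strand setting and multi-mapping reads, the choice is not given in the sources used here. Members and lists were chosen with earlier results of these data known.

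The count test was edgeR 4.0.16 (quasi-likelihood F, under R 4.3.3): TMM scaling, the filterByExpr filter by group, all 18 libraries in 1 fit with group as the only term, and Benjamini-Hochberg adjustment over all genes tested, with calls at an adjusted p below 0.05. The standard error of a log2 fold change is its absolute value divided by the square root of F. CPM are counts over the TMM-scaled library size. Intervals and floors (3 counts over a group) cover counting error only. Alternatives were DESeq2 1.42.0, other filters, rounded RSEM expected counts, no ribosomal RNA genes, the replicate block, only the 2 groups compared, and leaving out libraries. Members with at least 10 CPM in brush get every library's value, and those with at least 10 brush counts a level and fold. Gene positions come from GENCODE vM21 and promoter windows from RefSeq GRCm38.p6. Replicate numbers of the titles were not taken as pairs of libraries.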

Additional observations from a re-analysis of the deposited data

Results flagged for a closer look

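Of 40 sets of values checked, 10 had 1 library far from the rest, and in all 10 it was brush replicate 7. The rule flags about 1 set in 20 for normally spread values. Sparse counts with many zeros are not spread so, and these sets share that library, so 10 of 40 cannot be set against that rate. Single members were checked if they had at least 10 brush counts, and of those flagged only Tas2r106 had as many without replicate 7. The flags of the others were thus largely fixed by that choice. Replicate 7 had 6.187 CPM of Tas2r106 where the other brush libraries had 0 to 2.54 CPM, 4.283 CPM of Tas2r109 (0 to 0.427), 2.975 CPM of Tas2r110 (0 to 1.09), 3.451 CPM of Tas2r130 (0 to 0.853), 2.737 CPM of Tas2r125 (0 to 0.203) and 2.142 CPM of Tas2r131 (0 to 0.363). Tas2r119 (1.547 CPM), Tas2r120 (4.046 CPM), Tas2r121 (3.927 CPM) and Tas2r144 (1.666 CPM) had 0 in the other brush libraries. The number of members detected was highest in replicate 7 (35 against 12 to 23), but replicate 4, at 12, widened the range and the gap was too small to pass. The family sum and the shares of Tas2r108 and Tas2r138 had no library this far from the rest.

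Reads also fell on pseudogenes of the family, which are in the RSEM tables and not in the count table used for the comparisons. Over the brush libraries RSEM gave 312 expected counts to Tas2r145-ps3, 42 to Tas2r141-ps4, 41 to Tas2r142-ps5 and 10 to Tas2r146-ps1. EpCAM libraries had 1 expected count of Tas2r142-ps5 and 0 of the others, and CD45 libraries had 0 of all 4. These differences were not tested.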

How the results depend on the processing

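The filter on low counts moved the number of members called higher in brush the most. Against EpCAM it was 13 of 13 tested with the filter by group, 28 of 35 with no filter, 27 of 30 with a filter blind to the groups (at least 10 counts summed) and 5 of 5 when only the 2 groups were fitted. Against CD45 the numbers were 13 of 13, 21 of 35 with no filter and 21 of 30 with the blind filter. With alternatives chosen after seeing the data, no filter gave 22 against EpCAM without brush replicate 7, and 27 (EpCAM) and 20 (CD45) without brush replicate 4, EpCAM replicate 5 and CD45 replicate 1. With the filter by group, leaving out each library in turn gave 11 to 17 members against EpCAM and 11 to 17 against CD45. Against EpCAM every member tested was called in each of these fits. Against CD45 it was 16 of 17 without CD45 replicate 2 or 3, and every member tested otherwise. With a filter, members passed mainly through brush counts, so these numbers follow the filter and are no check of the calls. Between EpCAM and CD45 libraries, with few reads in both, it gave 0 to 0 members. Cascade genes called were 8 to 8 of 9, and members detected 27 to 35, 27 without brush replicate 7. The family's mean brush level was 607.7 CPM, 853.2 without ribosomal RNA genes, 336.3 from RSEM expected counts, and 567.4 to 669.7 without each brush library. No call of a member reversed direction in the alternatives run. Without brush replicate 7 and with no filter, 4 uncalled values did so: Tas2r140 against EpCAM (0.83 to -1.01 on the log2 scale) and, against CD45, Tas2r119 (0.03 to -3.36), Tas2r122 (0.13 to -1.68) and Tas2r125 (2.23 to -0.64). With the replicate block 13 of 13 members tested were called against EpCAM and 13 of 13 against CD45, with the same limit of the filter. Deviations of same-numbered libraries were at most weakly correlated. The values were -0.0691 to 0.2352 for brush and EpCAM, with 2 of 7 best with their own number. They were -0.1975 to 0.1014 for brush and CD45 (0 of 4) and -0.1802 to 0.2633 for EpCAM and CD45 (1 of 4). The numbers were not taken as pairs, but so few values cannot decide whether they pair the libraries. The 7 members not called against EpCAM had 3 to 13 brush counts over the 7 libraries, so few reads stand behind their values.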
